A study of Mus musculus with 8 samples.

Results

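A set of 10 transcription factors of the naive pluripotent state was read in clones of mouse induced pluripotent stem (iPS) cells, namely Klf2, Klf5, Tbx3, Esrrb, Nr5a2, Nr0b1, Tfcp2l1, Zfp42, Prdm14 and Gbx2. They were chosen by symbol, as factors that are not part of the reprogramming transgene, and every probe set annotated to exactly 1 of these symbols was taken. This gave 23 of the 34945 probe sets with a single symbol, for 10 of 18193 genes. Expression was measured on Affymetrix mouse expression arrays, 1 per clone, in 4 clones derived with ascorbic acid (vitamin C) and 4 derived without it. All 8 clones came from embryonic fibroblasts of Col-OKSM mice, a strain whose Oct4, Sox2, Klf4 and cMyc transgenes are switched on by doxycycline, and the medium of both groups held serum, LIF and doxycycline. The cells were grown on irradiated feeder fibroblasts and preplated before RNA extraction to remove them. The labels call the clones of a group biological replicates without naming embryos or cultures of origin, and the p-values below therefore reflect only how far these clones differed.

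Naive pluripotency is the state of the epiblast before implantation, and mouse cells are held in it by a network of transcription factors that reinforce each other and feed into Oct4, Sox2 and Nanog. LIF acts through STAT3 on Tfcp2l1, Klf5 and Gbx2, WNT signalling relieves Esrrb, Klf2 and Tfcp2l1 of repression by Tcf7l1, and FGF-ERK signalling works against the network. Several of these factors are absent from primed epiblast cells, which keep Oct4 and Sox2.

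The array medians lay between a signal of 134 and 156, and the correlation of log2 signals between any 2 arrays was 0.970 to 0.977. The brightest probe sets of all 12 pluripotent cell markers were above the dim limit, a signal of 93.7 below which probe sets were not tested. In the summed signal of these markers, clones with ascorbic acid had 93670 to 111955 and clones without 103546 to 117561. The dim limit alone does not tell cell types apart. Of 19 fibroblast and feeder markers 15 were also above it, as were 10 of 12 primitive endoderm markers. The 10 genes were all above the dim limit on their brightest probe set, which stood for the gene. Of all 18193 genes, 13125 were above the limit in this way. Of the 23 probe sets 17 were above it, where the dimmest 40% of all probe sets were left out.

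With ascorbic acid, 9 of the 10 factors had a lower mean than without, by small amounts, and Gbx2 had a higher one. None passed the test over all genes (limma with Benjamini-Hochberg adjustment, threshold 0.05), where 0.0229% of 13125 genes passed. An unadjusted limma p under 0.05 was found for 5 of the 10 factors, namely Tfcp2l1, Klf2, Tbx3 and Nr5a2 on the lower side and Gbx2 on the higher, against 5.83% of all genes in either direction and 2.77% on the lower side. Several factors varied together from clone to clone, so the counts of 9 and of 5 are not made of separate readings. The factors were also chosen with earlier results of these data known. The median log2 difference of the 10 factors was -0.15, and that of all tested genes was -0.0042. Of the 12 pluripotent cell markers, none of them among the 10 factors, 9 were also lower with ascorbic acid and 3 higher (median log2 difference -0.12, 0 past the threshold, 1 with an unadjusted limma p under 0.05), and the part of a general shift of such genes was not tested. A difference below 0 was seen in 51.4% of all genes, and in 46.8% of the 7515 genes whose level lay within the range of these factors. The count of 9 of 10 was the same under each of 20 other settings, including quantile normalization and median centring of the arrays. Some of these settings changed only the dim filter, the variance model or the kinds of probe set used, or blocked by clone number. Each factor's log2 difference was identical in those, so the count could not change there. The count of 5 became 3 without clone 2 or clone 4 with ascorbic acid, without clone 1 or clone 2 of the other group, with array weights and in eBayes without an intensity trend. It became 4 in some others, among them median centring. There the unadjusted limma p was 0.0355 for Klf2, 0.0260 for Tbx3, 0.0352 for Tfcp2l1, 0.116 for Nr5a2 and 0.0141 for Gbx2. With quantile normalization the count stayed 5, with 0.000849 for Klf2 and 0.000871 for Tbx3. The p-values thus depended on the scaling.

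**Figure D1:**
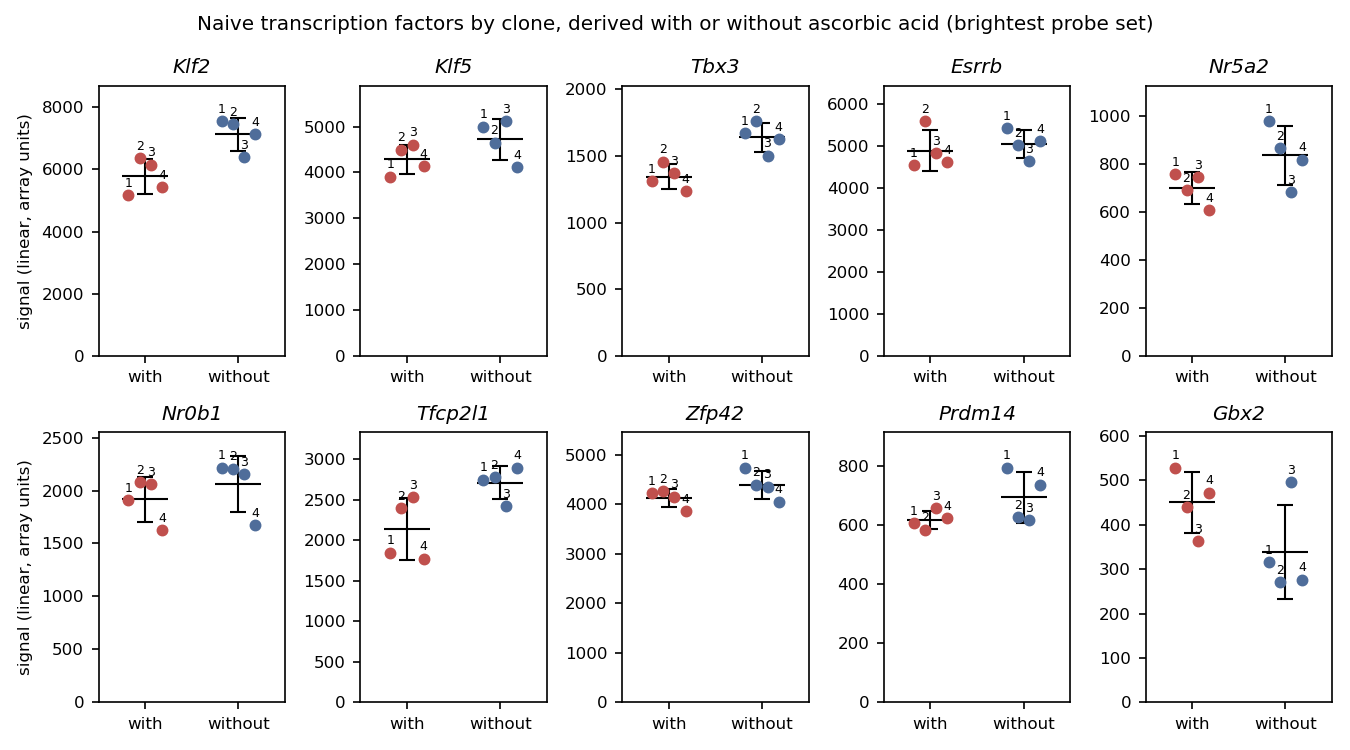
Signal of the brightest probe set of each factor (linear array units, axes start at 0) in the 4 clones derived with ascorbic acid (red) and the 4 derived without (blue). Points carry the clone number, and the long and short black lines give mean and SD. Klf2 and Tbx3 are the factors in which the groups do not overlap.

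Klf2 and Klf5 are Krüppel-like zinc finger factors that share targets with the transgene factor Klf4 and can in part replace it. Klf2, whose protein is marked for degradation by ERK signalling in mouse embryonic stem cells, had signals of 5174, 6369, 6151 and 5421 in clones 1 to 4 with ascorbic acid, against 7553, 7447, 6388 and 7131 in clones 1 to 4 without. Each of the 4 clones with ascorbic acid was below all 4 without, although clone 2 with and clone 3 without were nearly equal. The means were 5779 ± 572 with and 7130 ± 526 without (SD, n = 4 each). The log2 difference was -0.30 ± 0.080 (SE). That is a fold of 0.810 with a 95% interval of 0.718 to 0.914, and the limma p was 0.00246 before and 0.697 after adjustment over all genes. Klf2 ranked 45th of 13125 genes by p. Klf2 has a single probe set, so no second reading of it was available.

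Klf5, a target of LIF signalling, overlapped between groups. Its brightest probe set ranged from 3907 to 4604 with ascorbic acid and from 4115 to 5118 without, a log2 difference of -0.14 ± 0.079 (SE; limma, adjusted p = 0.844). The next probe set gave -0.13, with signals of 463 to 574 with and 545 to 622 without. The 95% interval of the fold, 0.808 to 1.02, leaves room for no difference and for one as large as that of Klf2.

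The Klf2 promoter, from 250 bases before to 50 after the start of the gene, is shown because Klf2 is one of the factors whose groups did not overlap. Those of Zfp42 and Gbx2 are shown beside it, Zfp42 because it holds the most of the motifs searched and Gbx2 because it went the other way. Capitals mark the matches on either strand, and all are RefSeq sequences of build GRCm38.p6, read 5′ to 3′ on the gene's own strand. Klf2 lies at chr8:72318812-72319111 on the plus strand, Zfp42 at chr8:43306960-43307259 on the minus strand and Gbx2 at chr1:89931127-89931426 on the minus strand.
Klf2: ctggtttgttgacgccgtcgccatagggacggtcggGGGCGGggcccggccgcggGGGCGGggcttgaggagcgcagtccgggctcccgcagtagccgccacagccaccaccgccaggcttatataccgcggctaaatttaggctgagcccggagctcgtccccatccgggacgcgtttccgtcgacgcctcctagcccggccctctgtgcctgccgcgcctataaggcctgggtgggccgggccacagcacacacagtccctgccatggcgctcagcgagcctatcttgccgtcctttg
Zfp42: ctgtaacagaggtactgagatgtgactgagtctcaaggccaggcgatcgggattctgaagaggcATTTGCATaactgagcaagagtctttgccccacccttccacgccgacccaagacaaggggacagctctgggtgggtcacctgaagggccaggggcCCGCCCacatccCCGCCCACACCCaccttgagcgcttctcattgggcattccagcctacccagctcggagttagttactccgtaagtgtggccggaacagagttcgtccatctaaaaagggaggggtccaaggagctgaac
Gbx2: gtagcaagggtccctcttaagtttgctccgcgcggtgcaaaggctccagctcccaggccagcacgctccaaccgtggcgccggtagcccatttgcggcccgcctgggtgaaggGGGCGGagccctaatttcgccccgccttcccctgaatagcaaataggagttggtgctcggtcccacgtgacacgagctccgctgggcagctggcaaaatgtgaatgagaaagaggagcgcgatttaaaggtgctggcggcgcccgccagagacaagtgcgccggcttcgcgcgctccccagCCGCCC

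The motifs searched, on both strands, were GGGCGG (called GC box here, a kind of site that Sp and Krüppel-like factors bind), GGGTGTGG (Krüppel-like factors), ATGCAAAT (the octamer bound by Oct4), TTCCNGGAA (STAT3), TCAAGGTCA (Esrrb) and CTTTGAT (TCF factors). The core promoter element TATAAA was searched too. The Klf2 and Gbx2 windows held 2 GC boxes each, a motif found in 35.7% of the 32851 promoters of the same length. The Zfp42 window held 2 GC boxes, 1 of them overlapping a Krüppel-like motif, and an octamer. The Krüppel-like motif is found in 3.56% and the octamer in 1.74% of all promoters. The Klf2 window was rich in CpG, with 32 CpG pairs, against 27 in Gbx2, 11 in Zfp42 and a median of 7 over all promoters. Of the other 4 factors matched in the promoter table, Tfcp2l1, Nr0b1 and 1 of 2 Nr5a2 windows held the letters TATAAA, found in 13.6% of all promoters. The Nr5a2 match was on the opposite strand and further from the start of the gene than those of Tfcp2l1 and Nr0b1. It is therefore not read as a core promoter element. None of the motifs was found in either Esrrb window. These letters are a description of the windows, and no binding was measured.

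Tbx3, a T-box factor that sustains Nanog expression downstream of PI3K signalling, gave the smallest p of the 10. Its brightest probe set read 1313, 1458, 1372 and 1236 in clones 1 to 4 with ascorbic acid, against 1669, 1761, 1503 and 1625 in clones 1 to 4 without. The groups did not overlap. The means were 1345 ± 93.9 with and 1639 ± 107 without (SD, n = 4 each). The log2 difference was -0.28 ± 0.070 (SE), a fold of 0.822 (95% interval 0.739 to 0.914; limma, unadjusted p = 0.00166, adjusted p = 0.616).

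Groups that do not overlap, with all 4 clones with ascorbic acid on the lower side, were seen in 2 of the 10 factors and in 1.57% of all genes, and on the higher side in 0 of the 10 and in 2.06%. The count was 0 after median centring of the arrays and 1 where probe sets of a gene were averaged. It was 4 when clone 3 derived without ascorbic acid was left out, and 5 when clone 4 of that group was. Groups separate more easily when a clone is left out. The share of all genes was not computed under these other settings, so 1.57% is no measure for their counts.

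The other Tbx3 probe sets differed among themselves. The next brightest, an _x_at set that may cross-hybridise, read 706 to 1151 with ascorbic acid and 1027 to 1389 without, a log2 difference of -0.42 ± 0.14 (SE; limma over all probe sets, unadjusted p = 0.00968, adjusted p = 0.784). Another, close to the dim limit, read 72.0 to 138 with and 74.4 to 122 without, a log2 difference of 0.056 ± 0.23 (SE). The remaining Tbx3 probe sets were below the dim limit, one at 24.6 to 31.1 with ascorbic acid and 31.4 to 114 without, the other at 6.01 to 20.5 with and 10.2 to 22.7 without.

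The nuclear receptors of the network are Esrrb, a target of Nanog that can stand in for it, Nr5a2, which binds the Oct4 gene and can replace Oct4 in reprogramming mouse fibroblasts, and Nr0b1 (Dax1), which lacks the usual DNA-binding domain and binds Oct4 protein. Nr5a2 read 759, 692, 745 and 609 in clones 1 to 4 with ascorbic acid, against 979, 867, 682 and 818 in clones 1 to 4 without. Clone 3 without ascorbic acid lay among the clones with it, and the other 3 lay above all of them. The log2 difference was -0.24 ± 0.11 (SE), a fold of 0.845 with a 95% interval of 0.716 to 0.997 (limma, unadjusted p = 0.0462, adjusted p = 0.844). The other Nr5a2 probe sets above the dim limit were at -0.20 and -0.16, so all 3 pointed the same way.

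Esrrb was nearly level. Its brightest probe set ranged from 4534 to 5584 with ascorbic acid and from 4631 to 5417 without, with the highest clone of all in the group with ascorbic acid. The log2 difference was -0.048 ± 0.075 (SE; limma, adjusted p = 0.951), and the 95% interval of the fold was 0.863 to 1.08. Its other probe sets were at -0.16 and -0.079. Nr0b1 ranged from 1623 to 2078 with and from 1673 to 2215 without ascorbic acid, a log2 difference of -0.10 ± 0.10 (SE; limma, adjusted p = 0.915). In both groups clone 4 had the lowest Nr0b1 signal, 1623 with and 1673 without ascorbic acid.

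Tfcp2l1, a factor of the CP2 family that carries LIF-STAT3 signals into the network, had the lowest log2 difference of the 10. It read 1849, 2400, 2534 and 1775 in clones 1 to 4 with ascorbic acid, against 2752, 2782, 2426 and 2897 in clones 1 to 4 without. Clones 1 and 4 with ascorbic acid were well below the other 6, whereas clones 2 and 3 were close to clone 3 without. The means were 2140 ± 383 with and 2714 ± 202 without (SD, n = 4 each). The log2 difference was -0.35 ± 0.11 (SE), a fold of 0.782 (95% interval 0.663 to 0.923; limma, unadjusted p = 0.00708, adjusted p = 0.749). The other Tfcp2l1 probe sets read at most 34.2 in any clone, below the dim limit.

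Zfp42 (Rex1), a zinc finger factor related to YY1 and a widely used marker of naive cells, had the narrowest spread. It ranged from 3860 to 4264 with and from 4057 to 4742 without ascorbic acid, a log2 difference of -0.087 ± 0.062 (SE; limma, adjusted p = 0.864; 95% interval of the fold 0.858 to 1.03). Prdm14, which restrains FGF receptor signalling and the de novo DNA methyltransferases, ranged from 585 to 658 with and from 617 to 794 without. Its log2 difference was -0.16 ± 0.094 (SE; limma, adjusted p = 0.844).

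Gbx2, a homeobox factor induced by LIF-STAT3 and also a patterning gene of the midbrain-hindbrain border, was the factor with a higher mean. It read 528, 439, 362 and 472 in clones 1 to 4 with ascorbic acid, against 315, 271, 495 and 276 in clones 1 to 4 without. Clone 3 of each group broke the pattern: it was the lowest with ascorbic acid and the highest without. The means were 450 ± 69.3 with and 339 ± 106 without (SD, n = 4 each). The log2 difference was 0.42 ± 0.18 (SE), a fold of 1.34 (95% interval 1.02 to 1.75; limma, unadjusted p = 0.0363, adjusted p = 0.826). Leaving out clone 3 derived without ascorbic acid gave a log2 difference of 0.61 (limma, adjusted p = 0.834). Neuroectoderm markers, read because Gbx2 is also a neural gene, were higher with ascorbic acid in 3 of the 5 tested (median log2 difference 0.20, 0 past the threshold, 3 with an unadjusted limma p under 0.05). Their signals summed to between 1842 and 2164 in the clones with ascorbic acid and between 1604 and 2016 in those without, with Neurog2 below the dim limit on every array, and their part in the Gbx2 difference was not tested.

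**Figure D2:**
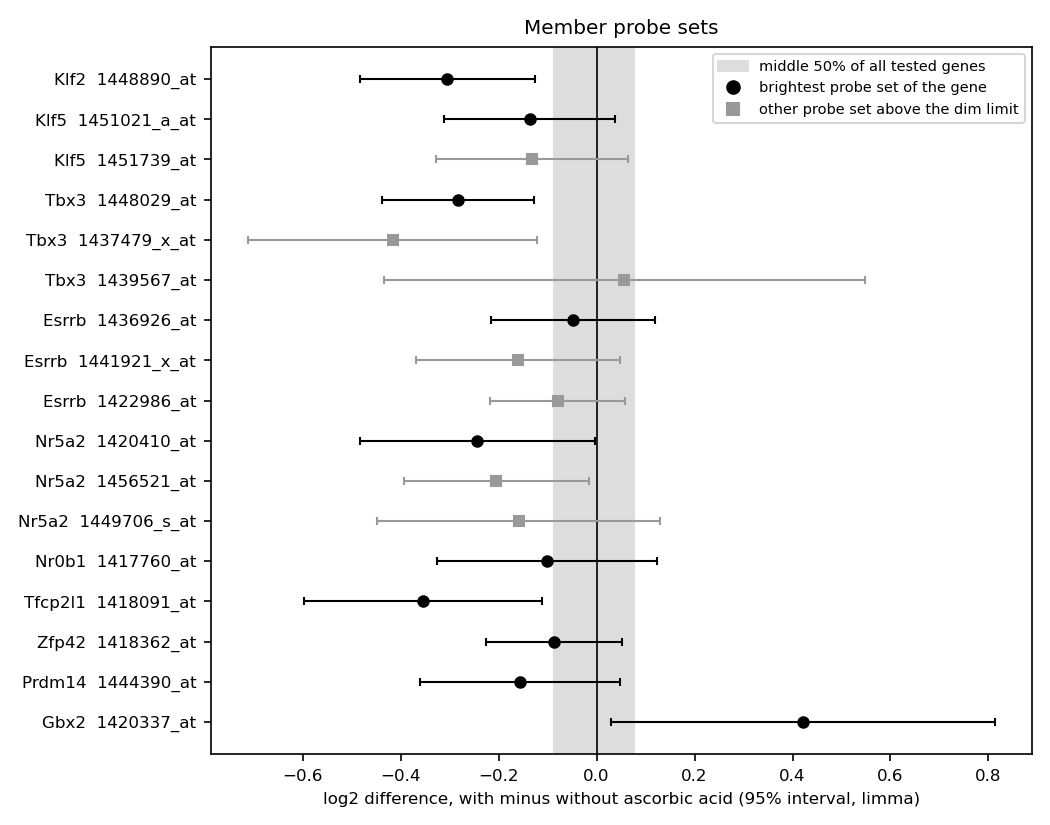
Log2 difference, with minus without ascorbic acid, of the 17 probe sets above the dim limit, with 95% intervals from limma over all probe sets. Black circles are the brightest probe set of each gene, grey squares the others, and the grey band holds the middle 50% of all tested genes. The lower side holds 15 of the 17, and the exceptions are Gbx2 and the dimmest Tbx3 probe set.

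Read probe set by probe set, 15 of the 17 above the dim limit were lower with ascorbic acid and 2 were higher. Klf5, Tbx3, Esrrb and Nr5a2 each gave more than 1 of the 17, so this count partly repeats the reading by gene. Among all genes 51.4% were lower, and the share of all probe sets was not computed. None of the 17 passed the limma test over all probe sets, where 0.0481% passed. The 6 probe sets below the limit, of Klf5, Tbx3, Nr5a2 and Tfcp2l1, had signals of 1.42 to 114 and were not tested.

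Clones also differed within groups. Each factor's log2 value was set against its own mean over the 8 clones, and the median of these deviations was -0.12, 0.0041, -0.031 and -0.19 in clones 1 to 4 with ascorbic acid, against 0.17, 0.10, 0.020 and 0.074 in clones 1 to 4 without. Clones 1 and 4 with ascorbic acid were low: clone 4 had the lowest value of all 8 clones in 5 factors and clone 1 in 3. Clone 1 without ascorbic acid had the highest value in 5. Clones 2 and 3 with ascorbic acid and clone 3 without lay near the overall mean.

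**Figure D3:**
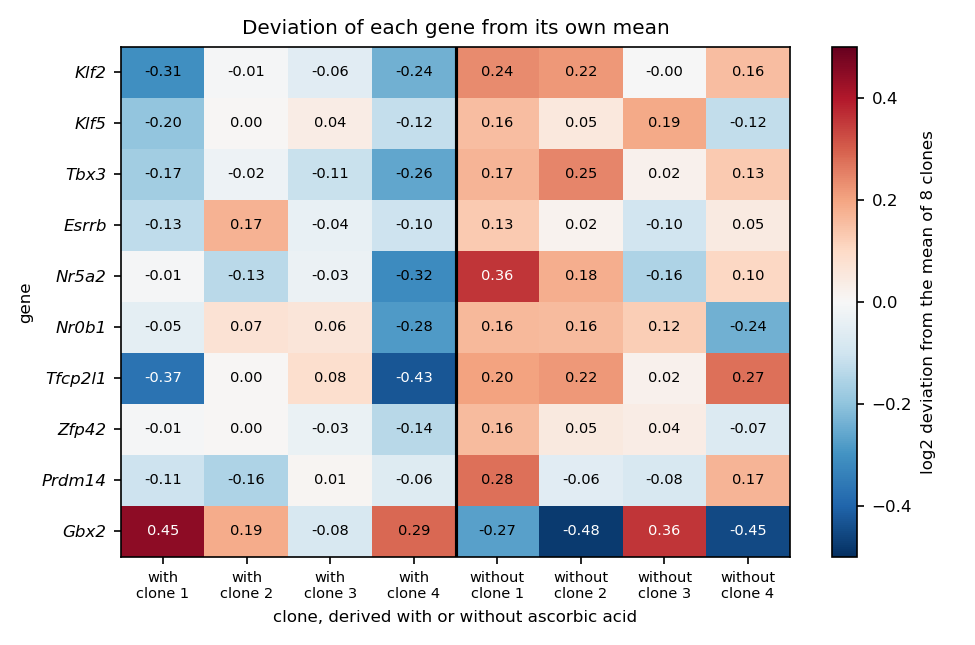
Log2 deviation of each factor (rows) from its own mean over the 8 clones, by clone (columns, with ascorbic acid on the left of the black line). Red is above and blue below the mean. Clones 1 and 4 with ascorbic acid are below the mean in all factors but Gbx2.

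Several factors varied together from clone to clone. Over the 45 pairs, Pearson's r of the log2 values in the 8 clones was above 0 in 35, with a median of 0.51. With each group's mean removed it was above 0 in 36, and the median was lower, at 0.33. All genes were read on the same 8 arrays, so an array's scaling enters both genes of a pair. Pairs of other genes were not counted in this way, so whether such values are particular to these factors was not tested. Klf2 and Tbx3 were the closest pair (r = 0.95, Spearman's rho = 0.95; exact permutation p = 0.000620 and 0.00114, adjusted over the 45 pairs to 0.0195 and 0.0257). Without the 2 clones farthest from the Klf2 median r was 0.99, and with each group's mean removed it was 0.85. Tfcp2l1 followed both, at r = 0.94 with Klf2 (rho = 0.81; exact permutation p = 0.00176 and 0.0218, adjusted 0.0243 and 0.163) and r = 0.89 with Tbx3 (rho = 0.86; exact permutation p = 0.00216 and 0.0107, adjusted 0.0243 and 0.121). Without the 2 clones farthest from the median on the x axis these were 0.92 and 0.83, and with the group means removed 0.87 and 0.76. The permutations ran over all 8 clones regardless of group, so a shared group difference enters every p of a pair. Values with the group means removed were not tested.

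Nr0b1 and Zfp42 formed another close pair (r = 0.86, rho = 0.98; exact permutation p = 0.000868 and 0.000397, adjusted 0.0195 and 0.0179), with r = 0.69 without the 2 clones farthest from the Nr0b1 median and 0.86 with the group means removed. Both were lowest in clone 4 of each group. Klf5 came next to Nr0b1 (r = 0.78, rho = 0.81; exact permutation p = 0.0257 and 0.0218, adjusted 0.129 and 0.163), which did not pass adjustment. The 4 pairs whose r passed adjustment were Klf2-Tbx3, Klf2-Tfcp2l1, Tbx3-Tfcp2l1 and Nr0b1-Zfp42. After quantile normalization 3 passed, with Klf2-Tbx3 at r = 0.97 and Nr0b1-Zfp42 no longer among them, and after median centring the same 4 passed.

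Over the 8 clones all 9 pairs of Gbx2 had r below 0, from -0.85 with Klf2 to -0.14 with Nr0b1, whereas 35 of the 36 pairs among the other 9 factors were above 0. With each group's mean removed, 6 of the 9 Gbx2 pairs were below 0 and 3 above it, namely those with Klf5 (0.20), Zfp42 (0.073) and Nr0b1 (0.066), and 33 of the other 36 were above 0. The group difference thus enters these values. The pair with Klf2 had r = -0.85 and rho = -0.76 (exact permutation p = 0.0101 and 0.0368, adjusted 0.0757 and 0.173) and that with Tfcp2l1 r = -0.83 and rho = -0.86 (exact permutation p = 0.00799 and 0.0107, adjusted 0.0719 and 0.121), so neither passed adjustment. Without the 2 clones farthest from the median on the x axis these were -0.80 and -0.95. With the group means removed the pairs with Klf2 and Tfcp2l1 were at -0.77 and -0.71.

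**Figure D4:**
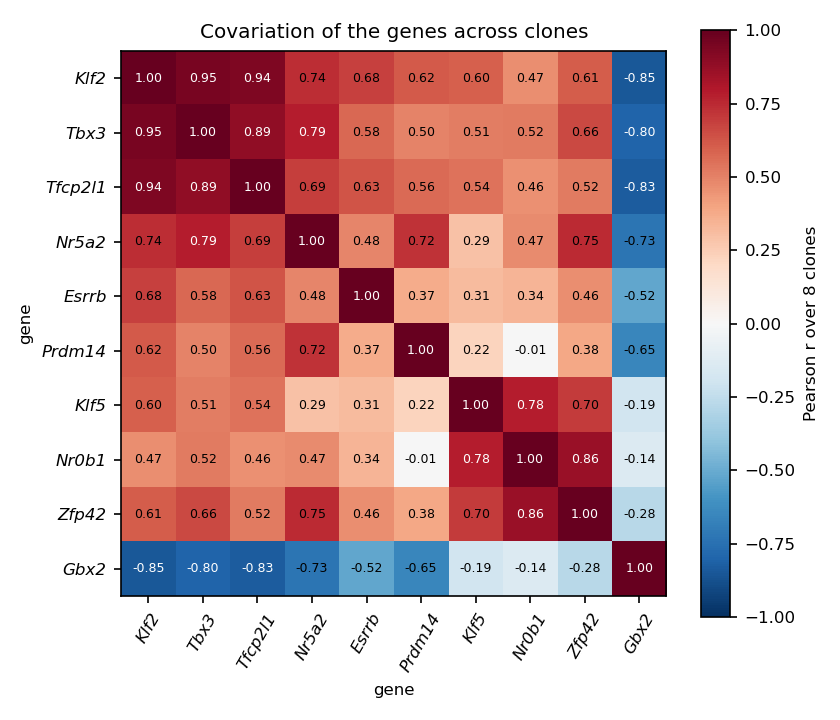
Pearson's r between the log2 values of each pair of factors over the 8 clones (both axes list genes, red above and blue below 0). Klf2, Tbx3 and Tfcp2l1 form one block at 0.89 to 0.95, Nr0b1 and Zfp42 stand at 0.86, and the Gbx2 row is below 0 throughout.

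**Figure D5:**
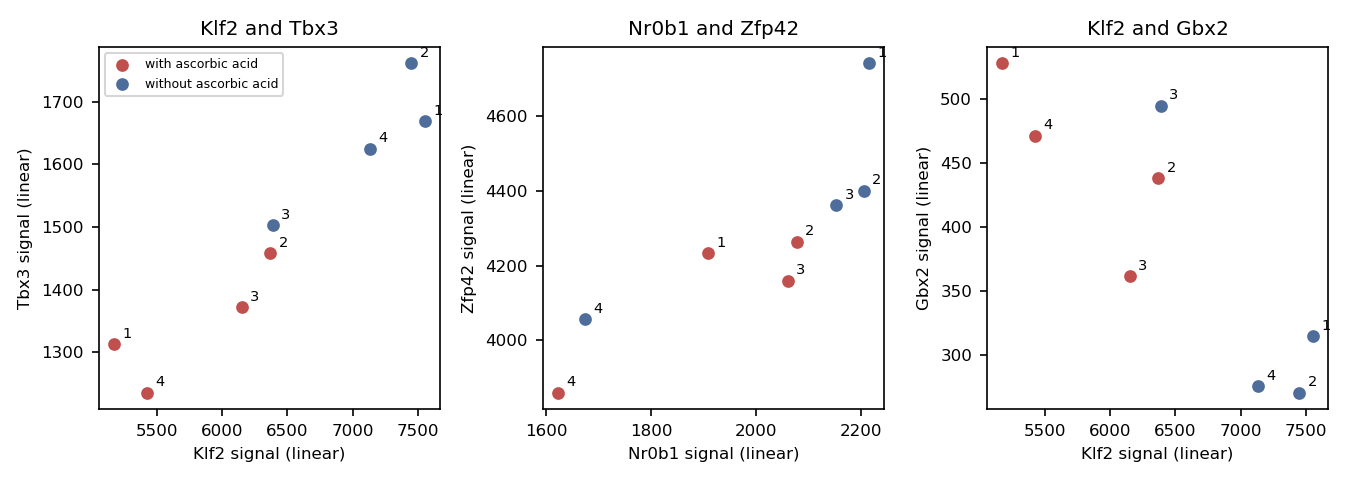
Signals (linear array units) of 3 pairs of factors in the 8 clones, numbered by clone, with ascorbic acid in red and without in blue. Klf2 rises with Tbx3 (r = 0.95 on the log2 scale) and Zfp42 with Nr0b1 (r = 0.86), and Gbx2 is high where Klf2 is low (r = -0.85).

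The spread between clones differed among the factors. The residual SD of the log2 values was 0.080 for Zfp42, 0.097 for Tbx3 and 0.13 for Klf2, against 0.20 for Tfcp2l1 and 0.32 for Gbx2. Set against the genes within 0.5 log2 of the same level, Tfcp2l1 was at the 94.9th percentile, Gbx2 at the 92.5th and Nr0b1 at the 91.6th, while Zfp42 was at the 40.5th and Tbx3 at the 42.3rd. In all, 7 of the 10 factors varied more between clones than the median gene of their level.

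For each factor the gene outside the 10 with the most similar profile was found by Pearson's r of log2 values over the 8 clones among 13124 genes, as a description with no test. Each r below is the highest of very many over only 8 clones. How high it lies for other genes was not computed, so no shared function is read from it. For Klf2 it was Pga5, a pepsinogen (r = 0.97), and for Tbx3 it was Ctsd, the lysosomal protease cathepsin D (r = 0.96). Ooep, an oocyte-expressed protein of the maternal subcortical complex, was nearest to Tfcp2l1 (r = 0.97), and Ctnnal1 was nearest to Nr5a2 (r = 0.96). For Nr0b1 and Zfp42 they were Idi1 and Msmo1, enzymes of sterol synthesis (r = 0.97 and 0.96). For Esrrb it was Eml4, a microtubule-associated protein (r = 0.99), for Klf5 Sp110 (r = 0.95), for Prdm14 Fbxo44 (r = 0.96) and for Gbx2 the DNA repair gene Xpa (r = 0.96). Tbx3 stood 6th among all genes in likeness to Klf2, and Klf2 stood 5th in likeness to Tbx3. For the other factors the most similar of the 10 stood further down. Its rank was 11 for Tfcp2l1, 36 for Zfp42, 63 for Nr0b1 and 119 for Nr5a2. It was 146 for Klf5, 246 for Prdm14, 622 for Esrrb and 8286 for Gbx2.

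Genes of the signalling arms around the network were read from the same fit. Of the 9 genes of the LIF-STAT3 arm, 8 were higher and 1 lower with ascorbic acid (median log2 difference 0.063), with 0 past the threshold and 1 with an unadjusted limma p under 0.05. That was Jak2, a Janus kinase, at 0.30 (limma, adjusted p = 0.826), and Socs3, the feedback inhibitor of the pathway, was at 0.097 (adjusted p = 0.880). Of 8 tested genes of the WNT-TCF arm 6 were higher and 2 lower (median 0.046) and none had an unadjusted limma p under 0.05, with Lef1 at 0.19 and Ctnnb1, beta-catenin, at -0.091. Of 11 tested genes of the FGF-ERK arm 7 were higher and 4 lower (median 0.061), 0 passed and 3 had an unadjusted limma p under 0.05. Among these, the receptor Fgfr1 was at 0.23 (adjusted p = 0.767) and Etv5, a transcription factor induced by ERK, at 0.21 (adjusted p = 0.812). Cofactors and antagonists of the network, 11 tested, were higher in 5 and lower in 6 (median -0.020), with none at an unadjusted limma p under 0.05, and Trim28 at -0.17 and Cbfa2t3 at -0.18 had the smallest p.

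Of 15 other naive-state genes tested, 4 were higher and 11 lower with ascorbic acid (median log2 difference -0.047), 0 passed and 1 had an unadjusted limma p under 0.05. Tcl1, a cofactor of Akt, had 1417 ± 397 with and 1810 ± 88.0 without (limma, SD over 4 clones each, adjusted p = 0.834), with clone 4 with ascorbic acid the lowest of the 8 at 840. Manba, a lysosomal mannosidase, was at -0.21 (adjusted p = 0.844). In the primed and formative list 10 of 15 tested genes were higher and 5 lower (median 0.095), 1 passed and 4 had an unadjusted limma p under 0.05. Tcf15, a helix-loop-helix factor of the early epiblast, rose to 1663 ± 92.9 with ascorbic acid, against 769 ± 230 without (SD, n = 4 each; limma, adjusted p = 0.0285). The Tcf15 call held in 8 of 20 other settings, with adjusted p from 5.06e-05 to 0.259. It was lost when any single clone other than clone 3 of the group without ascorbic acid was left out (limma, adjusted p from 0.0629 to 0.179), and after quantile normalization (0.0539).

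Of the core and reprogramming factors, 4 were lower and 2 higher, with a median log2 difference of -0.075 and 0 past the threshold. Pou5f1 (Oct4) was at -0.14, Nanog at -0.12, Sox2 at -0.066 and Klf4 at -0.084 (limma, adjusted p = 0.844, 0.844, 0.902 and 0.908). Myc was at 0.63, with 299 ± 71.8 with and 187 ± 46.4 without (SD over 4 clones each; limma, unadjusted p = 0.00793, adjusted p = 0.749). Whether these probe sets read the transgene was not tested.

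Markers of other cells were read beside these differences. Of 15 tested fibroblast and feeder markers, 13 were lower with ascorbic acid (median log2 difference -0.17, 0 past the threshold, 4 with an unadjusted limma p under 0.05). Their signal summed over 19 genes lay between 31613 and 38439 in the clones with ascorbic acid and between 36907 and 38513 in those without, and 1 of them, Lum, was below the dim limit on every array. Most of these markers and 9 of the 10 factors were thus lower with ascorbic acid, and the part of feeder RNA in the result was not tested. Trophectoderm markers, of interest because Klf5 and Esrrb are also used by trophoblast cells, were lower in 5 of 7 tested (median -0.11, none with an unadjusted limma p under 0.05) and summed to 3731 to 4849 with and 4085 to 4737 without, with Gata3 and Elf5 below the dim limit on every array. B and blood cell markers were lower in 4 of 5 tested (median -0.14, 0 past the threshold, 2 with an unadjusted limma p under 0.05) and summed to 1675 to 1868 with and 1782 to 2309 without, with Ptprc below the dim limit on every array. The part of these cells in the result was not tested. Primitive endoderm markers were higher in 7 of 10 tested (median 0.047, none with an unadjusted limma p under 0.05) and summed to 4379 to 5437 with and 4785 to 5041 without, with Sox7 and Afp below it. The 100 brightest probe sets took a share of all signal of 6.08% to 7.80% with and 6.61% to 8.37% without ascorbic acid, and among the clones with it the share was lowest in clones 1 and 4, at 6.08% and 6.40%. In these bulk samples fewer cells of a type and less RNA per cell cannot be told apart.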

How the data were processed

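The authors deposited 1 linear signal intensity for each probe set and array, made with GCOS per the submitters' processing notes, whose version and algorithm the sources used here do not give. Each array's mean after trimming 2% at each end was 500. Of 45101 probe sets, 64 array controls were left out, and 34945 had 1 symbol in the platform annotation, 932 several and 9160 none. All 10 symbols were found in RefSeq (GRCm38.p6), and 7 had a promoter entry. Signals were transformed as log2(signal + 16), which understates changes of dim genes. Array medians spanned 0.199 log2, under a limit of 0.2, so the scaling was kept. The dimmest 40% of probe sets (signal 93.7) were left out, and the brightest probe set stood for a gene. limma 3.58.1 in R 4.3.3 (eBayes with an intensity trend, two-sided) tested 13125 genes and 27022 probe sets, with Benjamini-Hochberg adjustment over each. Correlations were tested by exact two-sided permutation of the 8 clones. Scripts were tested on simulated data. Figures were drawn with matplotlib 3.10.9.

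The factors and gene lists were chosen with earlier results of these data known. Named genes were all 10 factors, Pou5f1, Nanog, Sox2 and Klf4, from each other list up to 4 genes that passed (failing that, the 2 of smallest p), and the gene most like each factor. Clone numbers are shared by the groups, but same-numbered clones did not deviate together (correlations -0.17 to 0.012), so they were not paired. The number of arrays limits the precision. Alternatives were other scalings, pseudocounts, dim filters, probe set rules and variance models, array weights, the clone number as a block, and leaving out each clone.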

Additional observations from a re-analysis of the deposited data

Results flagged for a closer look

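A search for a single clone lying far from the other 3 of its group covered 98 groups and found 6 (6.12%), against about 5% by chance. The groups were those of the factors' probe sets and of the named genes. The genes most like each factor were among them, picked for following its profile. The groups are therefore not separate readings, and 5% is only a rough guide. For Nr0b1 the far clone was clone 4 without ascorbic acid, at 1673 where the others had 2153 to 2215. The same clone had 30.8 on a Tfcp2l1 probe set below the dim limit, where the others had 4.28 to 5.48. In clone 4 with ascorbic acid Jak2 had 570 where the others had 405 to 425, and Msmo1, the gene most like Zfp42, had 2304 where the others had 2501 to 2534. Eml4, the gene most like Esrrb, had 1721 in clone 2 with ascorbic acid, the others 1390 to 1443. Xpa, the gene most like Gbx2, had 491 in clone 3 without ascorbic acid, the others 369 to 383.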

How the results depend on the processing

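Over 20 other settings, all 200 log2 differences of the 10 factors kept their direction and none passed the threshold. The lowest limma adjusted p was 0.509, for Tfcp2l1 without clone 3 with ascorbic acid. Not all 200 could differ from the main fit. Other dim filters, other variance models, the clone number as a block and leaving out _s_at and _x_at probe sets gave identical log2 differences. Direction was therefore put to a check only in the remaining settings. The median log2 difference of the factors ranged from -0.20 to -0.099, the extremes coming when clone 4 or clone 1 derived without ascorbic acid was left out. Median centring moved it to -0.11 and the median of all genes to 0.029. The count of all genes past the threshold was 3 and became 1 in eBayes without the trend and 1 with robust estimation; the cause was not tested. It was 2 to 4 when single clones were left out. With the clone number as a replicate block 0 factors and 3 genes passed, and 4 of the 10 factors had an unadjusted limma p under 0.05. Pairs with r above 0 numbered 36 of 45 after either other scaling and with group means removed. With 4 arrays per group, differences of the size seen here could not be told from 0 after adjustment over all genes. The alternatives for the counts of lower factors, of unadjusted p and of groups that do not overlap, for the median of all genes and for Tcf15 were chosen after seeing the data.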
